A study of Mus musculus with 10 samples.

Results

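The 36 genes described here are keratinocyte genes, read out in RNA sequencing of whole mouse tumors. They were taken by gene name from the deposited expression table, which lists 34449 genes, and all 36 were found. They fall into 4 groups by role: 11 genes of the basal layer of the epidermis, 14 of the suprabasal layers, 7 of the cornified layer and 4 keratins of stressed epidermis and of skin appendages. The tumors were grown from 4T1, a mouse triple-negative mammary carcinoma line, implanted under the flank skin of BALB/c females aged 9 weeks. The study sequenced 10 libraries, 5 labelled as controls (C1 to C5) and 5 labelled as therapy (T1 to T5). The therapy, BC@Z-M + L, was a zinc-based nanoparticle that carried the hypoxia-responsive probe BN-O and the vascular disrupting agent CA4P inside a coat of M1-like macrophage membrane, given into a vein and followed by laser light on the tumor, in 3 rounds. The sources used here do not say what the control mice received, whether each library came from its own mouse, or whether skin was removed before RNA extraction. The p-values below therefore measure the spread between libraries only.

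The epidermis is a layered epithelium that renews itself from below. Basal keratinocytes divide on a basement membrane and make the keratin pair Krt5 and Krt14 under the transcription factor p63, whereas suprabasal cells leave the cycle and switch to Krt1 and Krt10. In the outer layers, filaggrin, involucrin and the small proline-rich proteins are joined into the cornified envelope, the barrier of the skin. Krt6, Krt16 and Krt17 are held for hair follicles and for wounded or inflamed epidermis. A tumor implanted under the skin lies directly beneath this tissue, and 4T1 cells themselves express simple epithelial keratins such as Krt8 and Krt18.

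Levels are given in FPKM, that is, fragments scaled to transcript length and library size, which allows levels to be set side by side between genes. The libraries held between 53411182 and 77510631 estimated fragment counts. Marker genes of 4T1 epithelium were present throughout, with Krt8 between 593 and 1411 FPKM and Krt18 between 493 and 1134 FPKM. Of the 36 keratinocyte genes, 26 reached a mean of 1 FPKM over the 10 libraries and entered the test across all genes. The remaining 10 were Krt15, Dsg3, Trp63, Dsg1a, Dsc1, Calml3, Krt77, Ivl, Flg and Flg2.

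RNA of the 36 keratinocyte genes was highest in one library. The summed level of the 36 genes was 276, 113, 246, 124 and 117 FPKM in C1 to C5, and 147, 964, 152, 141 and 155 FPKM in T1 to T5. T2 thus stood above every other library, and the 2 groups overlapped through all other libraries. In T2 the 36 genes made up 0.312% of all FPKM, against 0.0315% to 0.0872% in the other 9 libraries. In every library except T2, more of this sum came from Perp, Sfn, Serpinb5, Lypd3 and Krt80 than from the other 31 genes. In C2 those named genes held 104 of the 113 FPKM. The other 31 genes are given apart below. T2 had the highest level of 33 of the 36 genes (91.7%), whereas it was the highest library for 11.3% of the 12802 genes tested. The exceptions were Krt80, Lypd3 and Serpinb5, which peaked in C4, C1 and T5. Only 26 of the 36 were among the 12802, which needed a mean of at least 1 FPKM.

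A lower tier of 3 libraries followed T2, made up of C1, C3 and T3. The mean of log2(FPKM + 1) over the 36 genes, used here as a keratinocyte score, was 1.99, 0.82, 1.85, 0.97 and 0.92 in C1 to C5, and 0.96, 3.77, 1.5, 0.99 and 1.22 in T1 to T5. For 21 of the 36 genes (58.3%) the 4 highest libraries were T2, C1, C3 and T3 in some order, which held for 0.484% of all genes tested. That tested set holds only 26 of the 36. At least 1 FPKM was reached by 34 genes in T2, 22 in each of C1 and C3 and 17 in T3. T5 followed with 15, against 8 to 11 in C2, C4, C5, T1 and T4. None of the 36 was listed at 0 in C1, C3 or T2, 1 was in T3 and 5 were in T5, whereas 8 to 13 were in the rest. The second tier therefore held 2 control libraries and 1 therapy library. T5, a therapy library, came next by score, and by summed FPKM it stood at 155 against 152 in T3. In such bulk samples, fewer cells of a type and less RNA per cell cannot be told apart.

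**Figure D1:**
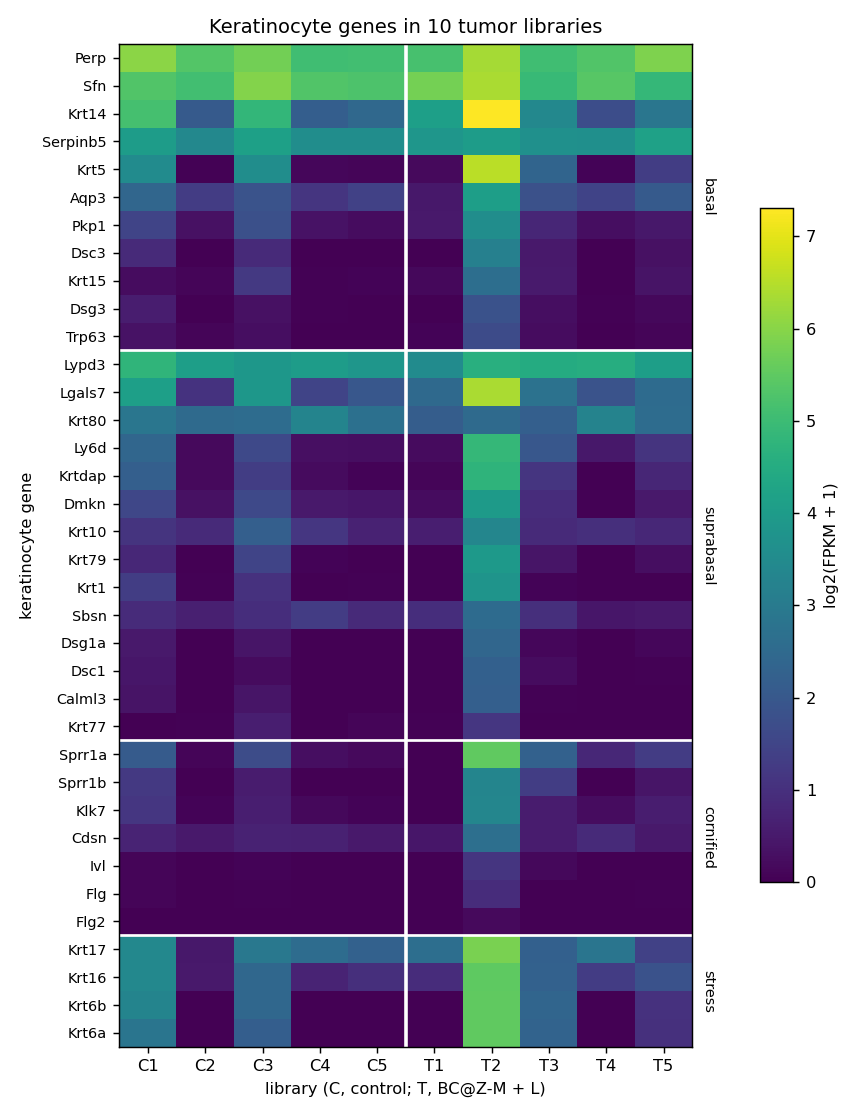
Level of each of the 36 keratinocyte genes (rows, grouped by role and sorted by mean FPKM within a group) in the 10 libraries (columns), colored by log2(FPKM + 1). The T2 column is bright in all 4 groups, and C1, C3 and T3 are intermediate. The rows of Perp and Sfn are bright in every library, and those of Serpinb5, Lypd3 and Krt80 are intermediate in every library.

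The defining keratins of the basal layer divided the libraries clearly. Krt5, the type II keratin of basal keratinocytes, was at 10.5, 0.0283, 11.1, 0.0910 and 0.0703 FPKM in C1 to C5, and at 0.130, 92.7, 4.16, 0.0597 and 1.49 FPKM in T1 to T5. T2 held 8.38 times the level of the next library, C3, and T3 lay below C1 and C3, with 4.16 against 10.5 and 11.1 FPKM. Its estimated counts ran from 5 in C2 to 14197 in T2, with 1391 in C1, 1690 in C3 and 540 in T3. The only other library above 0.130 FPKM was T5, at 1.49 FPKM. Control and therapy libraries overlapped for this gene.

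Krt14, the type I partner of Krt5, was measurable in every library. It was at 34.4, 3.20, 27.6, 3.56 and 4.57 FPKM in C1 to C5, and at 16.3, 157, 9.61, 2.30 and 6.32 FPKM in T1 to T5. T2 held 4.55 times the level of the next library, C1, and T1, which had almost no Krt5, was at 16.3 FPKM. Krt14 was therefore less specific to the 4 libraries than Krt5, with 86.3% of its summed FPKM in T2, C1, C3 and T3 against 98.4% for Krt5. Krt15, a keratin of basal cells and the hair follicle bulge, reached 5.19 FPKM in T2, 1.32 in C3, 0.447 in T3 and 0.307 in T5, and C1, at 0.173 FPKM, ranked below T5.

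Trp63 encodes p63, the master regulator of stratified epithelia. It was at 0.275, 0.0719, 0.195, 0.0184 and 0.00673 FPKM in C1 to C5, and at 0.0523, 2.18, 0.180, 0.00681 and 0.0768 FPKM in T1 to T5. T2 held 7.92 times the level of C1, and the order T2, C1, C3, T3 was the same as for the keratinocyte score. The desmosomal genes of the lower epidermis followed. The desmosomal cadherin Dsc3 was at 0.839, 0, 0.826, 0 and 0 FPKM in C1 to C5, and at 0, 8.04, 0.418, 0 and 0.245 FPKM in T1 to T5. Dsc3 was thus detected in T2, C1, C3, T3 and T5 and was listed at 0 in the other 5 libraries. Dsg3, a further desmosomal cadherin, reached 2.57 FPKM in T2 and 0.50 in C1, and Pkp1, a desmosomal plaque protein, reached 10.9 in T2, 2.43 in C3 and 1.83 in C1. Aqp3, the aquaglyceroporin of basal keratinocytes, was at 16.0 FPKM in T2 and between 0.392 and 4.28 FPKM elsewhere.

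T2 was also the highest library for 12 of the 14 suprabasal genes. The early differentiation keratin Krt1 was at 1.5, 0.0314, 1.05, 0.00655 and 0.0365 FPKM in C1 to C5, and at 0, 12.7, 0.0610, 0 and 0 FPKM in T1 to T5. It was above 1 FPKM only in T2, C1 and C3, and at 0.0610 FPKM in T3, so that T3 carried Krt5 without a matching level of Krt1. Krt10, the partner of Krt1, was at 1.14, 0.817, 3.64, 1.22 and 0.630 FPKM in C1 to C5, and at 0.543, 9.12, 0.823, 0.974 and 0.757 FPKM in T1 to T5. Krt10 was thus detected in all libraries, and T2 stood at 2.50 times the level of C3.

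Lgals7, the galectin of stratified epithelia, was the most abundant suprabasal gene that varied strongly. It was at 16.5, 1.08, 13.6, 1.82 and 2.93 FPKM in C1 to C5, and at 4.69, 81.9, 5.74, 2.68 and 4.87 FPKM in T1 to T5. T2 held 4.98 times the level of C1, and C2 was the lowest library. Ly6d, a surface protein of stratified epithelia, was at 4.28, 0.137, 2.08, 0.242 and 0.213 FPKM in C1 to C5, and at 0.160, 28.0, 2.94, 0.375 and 1.14 FPKM in T1 to T5. Its 4 highest libraries were T2, C1, T3 and C3, and the other 6 stayed at or below 1.14 FPKM.

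Sbsn, Dmkn and Krtdap are neighboring genes on chromosome 7 that encode secreted proteins of differentiating keratinocytes. Krtdap was at 3.62, 0.134, 1.51, 0.169 and 0.0416 FPKM in C1 to C5, and at 0.0657, 25.6, 1.18, 0 and 0.706 FPKM in T1 to T5. Dmkn reached 14.6 FPKM in T2, 2.07 in C3 and 1.94 in C1, whereas Sbsn reached 4.89 in T2 and was between 0.372 and 1.45 FPKM in the other 9 libraries. Sbsn thus did not separate C1, C3 and T3 from the rest, as C4 was its second library. Among the remaining genes of this group, Krt79, a keratin of the upper hair follicle and sebaceous duct, was at 14.1 FPKM in T2, 1.83 in C3 and 0.759 in C1. The cadherins Dsg1a and Dsc1 reached 4.27 and 3.77 FPKM in T2, the calmodulin-like protein Calml3 reached 3.62 and Krt77 reached 1.24, and these 4 genes stayed at or below 0.537 FPKM in all other libraries.

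The cornified-layer genes were low outside the 4 libraries. Sprr1a, a small proline-rich precursor of the cornified envelope, was at 3.31, 0.0619, 2.27, 0.203 and 0.129 FPKM in C1 to C5, and at 0, 45.2, 3.81, 0.755 and 1.47 FPKM in T1 to T5. T2 held 11.9 times the level of T3, which here ranked ahead of C1 and C3. Its close relative Sprr1b was at 1.32, 0, 0.484, 0 and 0 FPKM in C1 to C5, and at 0, 8.94, 1.49, 0 and 0.336 FPKM in T1 to T5. Sprr1b was listed at 0 in 5 libraries and placed T3 second as well.

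Klk7 is the kallikrein protease that cleaves corneodesmosomes during shedding. It was at 1.23, 0.0587, 0.517, 0.125 and 0.0447 FPKM in C1 to C5, and at 0, 9.24, 0.458, 0.181 and 0.488 FPKM in T1 to T5. Cdsn, the corneodesmosome adhesion protein, was between 0.364 and 0.833 FPKM in 9 libraries and at 5.30 in T2. The precursors Ivl and Flg reached 1.19 and 0.891 FPKM in T2 and were each listed at 0 in 6 libraries, and Flg2 was highest in T2, at 0.142 FPKM. T2 was the highest library for all 7 genes of the group.

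Promoters are shown here because the cornified-layer genes shared T2 as their highest library and 5 of them, Sprr1a, Sprr1b, Ivl, Flg and Flg2, lie on chromosome 3. Promoter windows from RefSeq (GRCm38.p6, 250 bases before to 50 bases after the start) were matched by symbol for 20 of the 36 genes. The letters TGANTCA, a loose form of the AP-1 motif searched on both strands, stood in 9 of the 20 windows (45%), among them all 5 genes on chromosome 3, and in 7.93% of 27025 mouse promoter windows. In Serpinb5, Sprr1b, Flg2 and Flg the only match was TGAATCA. Sprr1a, Ivl, Dmkn and Krtdap matched the stricter TGAGTCA or TGACTCA, and Sbsn held both TGAATCA and TGAGTCA. The share over all windows counts every form. The TATA motif TATAAA, searched on the sense strand, stood in 7 of the 20 (35%) against 8.88%. A form of the p63 motif, CATG followed by 6 free bases and CATG again, searched on both strands, stood in none of the 20 and in 0.770% of all windows. These are matches of letters and not measured binding. The windows of Sprr1a (chr3:92485832-92486131, minus strand), Ivl (chr3:92573686-92573985, minus strand) and Krtdap (chr7:30787655-30787954, plus strand) follow, with the AP-1 and TATA letters in capitals. The motifs do not overlap each other.
Sprr1a promoter: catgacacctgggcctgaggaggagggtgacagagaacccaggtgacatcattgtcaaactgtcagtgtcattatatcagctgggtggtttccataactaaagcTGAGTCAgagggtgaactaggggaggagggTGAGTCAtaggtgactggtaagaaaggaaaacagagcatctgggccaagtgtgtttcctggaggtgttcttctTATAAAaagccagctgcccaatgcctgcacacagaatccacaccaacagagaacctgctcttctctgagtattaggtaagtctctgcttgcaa
Ivl promoter: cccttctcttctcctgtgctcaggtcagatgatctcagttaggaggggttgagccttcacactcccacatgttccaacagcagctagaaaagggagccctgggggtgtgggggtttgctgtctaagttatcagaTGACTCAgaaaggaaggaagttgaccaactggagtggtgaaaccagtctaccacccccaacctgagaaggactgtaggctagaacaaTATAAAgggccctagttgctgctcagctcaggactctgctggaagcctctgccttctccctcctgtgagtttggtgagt
Krtdap promoter: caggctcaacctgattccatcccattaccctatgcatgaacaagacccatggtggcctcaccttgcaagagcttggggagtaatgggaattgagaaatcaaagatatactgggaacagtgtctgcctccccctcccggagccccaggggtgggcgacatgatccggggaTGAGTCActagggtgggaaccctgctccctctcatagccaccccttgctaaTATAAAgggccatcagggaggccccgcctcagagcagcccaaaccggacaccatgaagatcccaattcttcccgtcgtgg

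The stress and appendage keratins divided the libraries into those with and those without Krt6. Krt6a was at 6.22, 0, 3.52, 0 and 0 FPKM in C1 to C5, and at 0, 44.7, 3.96, 0 and 1.01 FPKM in T1 to T5. Krt6b was at 8.72, 0, 4.41, 0 and 0 FPKM in C1 to C5, and at 0, 45.1, 4.19, 0 and 1.04 FPKM in T1 to T5. Both genes were at or above 1 FPKM in T2, C1, C3, T3 and T5 and were listed at 0 in C2, C4, C5, T1 and T4. The coding sequences of Krt6a and Krt6b were 97.8% identical over 1662 aligned bases, so how reads were divided between them is uncertain. The ratio of Krt6a to Krt6b was 0.713 in C1, 0.797 in C3 and 0.992 in T2.

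Krt16, the type I partner of the Krt6 keratins, was at 9.61, 0.412, 4.47, 0.666 and 0.994 FPKM in C1 to C5, and at 0.897, 43.5, 3.80, 1.47 and 2.57 FPKM in T1 to T5. Krt17, a keratin of hair follicles and wounded epidermis, was at 9.57, 0.373, 6.65, 4.99 and 3.79 FPKM in C1 to C5, and at 5.24, 56.5, 3.72, 6.09 and 1.68 FPKM in T1 to T5. Krt17 differed from the other 3 genes in that C4, C5, T1 and T4 held 3.79 to 6.09 FPKM, close to the 3.72 FPKM of T3. The coding sequences of the type I keratins Krt14 and Krt16 were 86.5% identical, and those of Krt14 and Krt17 were 84.1% identical. Summed over the 4 genes, the level was 190 FPKM in T2, 34.1 in C1, 19.0 in C3 and 15.7 in T3, and it lay between 0.785 and 7.56 FPKM in the remaining libraries.

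**Figure D2:**
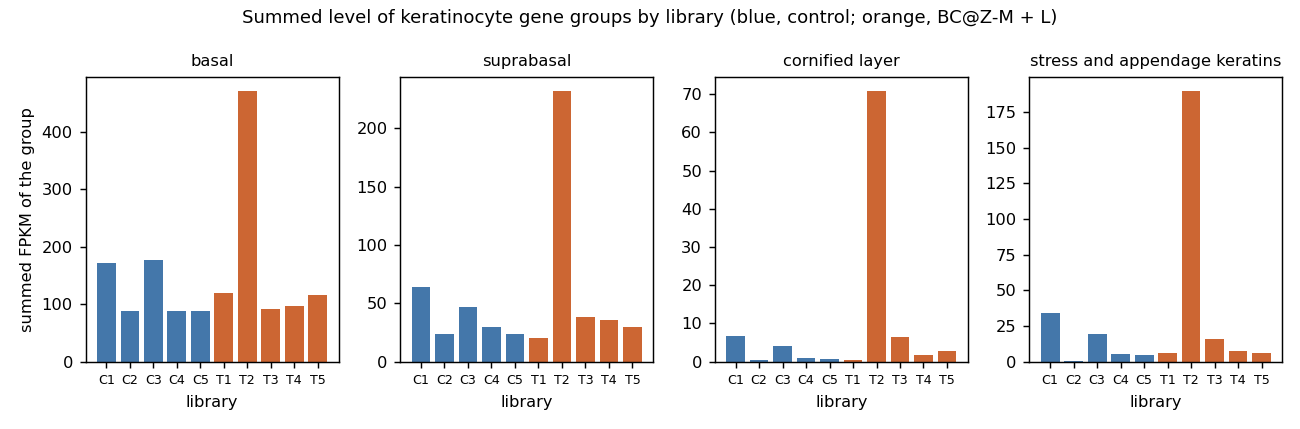
Summed FPKM of the basal, suprabasal, cornified-layer and stress keratin groups in each library, on a linear axis that starts at 0 in each panel (blue, control; orange, BC@Z-M + L). T2 is the tallest bar in all 4 panels, at 471, 232, 70.9 and 190 FPKM.

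A set of 5 genes, Perp, Sfn, Serpinb5, Lypd3 and Krt80, did not mark the 4 libraries. Perp, a p63 target of desmosomes, was at 64.4, 39.9, 52.6, 32.5 and 33.1 FPKM in C1 to C5, and at 35.2, 79.4, 32.3, 38.7 and 58.7 FPKM in T1 to T5. Sfn, the cell cycle regulator stratifin, was at 38.8, 33.3, 60.5, 39.1 and 37.7 FPKM in C1 to C5, and at 54.1, 81.6, 29.2, 41.8 and 28.2 FPKM in T1 to T5. T2 was highest for both genes, at 1.23 times the next library for Perp and 1.35 times for Sfn.

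Lypd3, a surface protein of the suprabasal layers, was at 26.3, 16.1, 13.6, 15.4 and 13.3 FPKM in C1 to C5, and at 10.4, 23.5, 21.6, 22.6 and 16.0 FPKM in T1 to T5. Krt80, an epithelial keratin linked to desmosomes, was at 6.22, 4.80, 4.98, 8.76 and 5.43 FPKM in C1 to C5, and at 3.44, 4.77, 3.67, 8.54 and 5.03 FPKM in T1 to T5. Krt80 thus put T2 among the lower libraries. Serpinb5, the serpin maspin, lay between 9.56 and 17.1 FPKM throughout. The summed level of these 5 genes was 98.3 to 205 FPKM, so that in every library except T2 they made up more than the other 31 genes together.

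The other 31 genes, set apart after their values were seen, gave a wider spread. Their summed level was 125, 9.49, 97.5, 17.2 and 17.0 FPKM in C1 to C5 and 30.5, 759, 53.6, 18.2 and 29.7 FPKM in T1 to T5. T2 held 6.06 times the level of C1, 7.78 times that of C3, 14.2 times that of T3 and 80.0 times that of C2, the lowest library. The estimated counts behind these sums were 102647 in T2, 13974 in C1, 13270 in C3, 5732 in T3 and 1365 in C2.

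The 4 libraries did not carry the genes in one fixed proportion. Relative to Krt5 in the same library, Krt6a stood at 0.592 in C1, 0.318 in C3, 0.482 in T2 and 0.954 in T3. The corresponding ratio of Sprr1a was 0.316, 0.205, 0.488 and 0.916, so that T3 was highest in both. Krt1 showed the opposite, with ratios of 0.143, 0.0946, 0.137 and 0.0147. The ratio of Krt15 was 0.0165, 0.119, 0.0559 and 0.108, and that of Krt79 was 0.0723, 0.165, 0.152 and 0.0825, so that C1 was lowest in both. These ratios come from single libraries and have no replicate error.

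By mean score, the wider epidermal program gave the same order of the highest libraries. In a list of 52 other epidermal genes, T2 was highest for 42, and the mean of log2(FPKM + 1) was 1.76 in T2, 0.96 in C1, 0.91 in C3, 0.82 in T3 and between 0.68 and 0.74 in the other 6 libraries. Gene by gene, T2, C1, C3 and T3 were the 4 highest libraries for 13 of the 52 (25%), against 58.3% of the keratinocyte genes. By summed FPKM, C5 (173.0) and T4 (170.0) ranked above T3 (169.5). Lor, the major cornified envelope protein loricrin, was at 0.771, 0.0317, 0.750, 0.0807 and 0.107 FPKM in C1 to C5, and at 0.0468, 3.13, 0, 0 and 0 FPKM in T1 to T5. As with Krt1, Lor was high in T2, C1 and C3, whereas it was listed at 0 in T3. The 4 most abundant genes of this list are shared with tumor epithelium and were present in every library. Lamb3 lay between 18.1 and 52.4 FPKM, Itgb4 between 20.9 and 42.7, Itga6 between 24.4 and 42.6 and Jup between 17.9 and 29.8.

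Hair follicle genes separated T2 from C1 and C3. The score of 21 hair shaft and inner root sheath genes was 2.64 in T2, 0.31 in T3 and between 0.11 and 0.16 in the other 8 libraries. Krt71, an inner root sheath keratin, was at 71.0 FPKM in T2 and 1.45 in T3 and was listed at 0 in the other 8 libraries. Krt25, a type I keratin of the same sheath, was at 43.3 FPKM in T2 and 0.819 in T3, and at most 0.191 in the others. Of the 21 genes, 18 reached 1 FPKM in T2, 2 in T3 and 1 in each remaining library.

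The scores of sebaceous gland and pigment cell genes were highest in T2 as well. The sebaceous gland score of 15 genes, among them Krt79, was 2.39 in T2 and 1.73 in C3, against 1.26 to 1.66 in the other libraries. By summed FPKM, C4 (232.5) ranked above T2 (163.6). The wax ester synthase gene Awat1 was at 2.04 FPKM in T2 and 0.543 in C3 and was listed at 0 in the other 8, while the 2 most abundant genes of the list, Plin2 and Scd1, are also used by fat and tumor cells and ranged from 40.0 to 72.2 and from 9.28 to 127.5 FPKM. The melanocyte score was 0.71 in T2 and 0.16 to 0.25 elsewhere, with the pigment cell gene Pmel at 1.01 FPKM in T2 and at most 0.289 in the others, and Mitf between 0.856 and 1.65. Cd207, the langerin of Langerhans cells, was at 1.08 FPKM in T2, 0.25 in C1 and 0.200 in C3 and at most 0.0651 elsewhere. The score of the 5 genes for Langerhans and epidermal T cells was 1.35 to 1.84 with C3 highest, in which Epcam, at 67.1 to 213 FPKM, is also a tumor gene and Trgc1 did not exceed 0.681 FPKM. T2 thus carried markers of epidermis, hair follicle, sebaceous gland and pigment cells, while C1 and C3 carried epidermal markers without Krt71, and C3 also Awat1. T3 carried basal, suprabasal, cornified-layer and stress keratinocyte genes, with little Krt1 and with low levels of Krt71 and Krt25. T5 carried some of the keratinocyte genes, with Krt1 listed at 0. Its Krt5, Krt6a and Krt6b were at 1.49, 1.01 and 1.04 FPKM, against 4.16, 3.96 and 4.19 in T3. Where this RNA came from was not tested.

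Other tissues next to the tumor did not follow the keratinocyte order. The skeletal muscle score of 17 genes was 2.46 in T3, 2.25 in T2 and 1.80 in C5, and at most 1.22 in the others. Acta1, the actin of skeletal muscle, was at 53.5 FPKM in T3, 51.0 in T2 and 27.9 in C5, and Tnni2 was between 5.31 and 12.5 FPKM. The adipocyte score was 3.76 in C4 and 2.08 in T4, with Cfd at 134 and Fabp4 at 49.2 FPKM in C4 against 3.42 and 6.30 in T2. The score of dermal fibroblast genes was 3.37 to 5.32 with T1 highest, Col1a1 at 70.7 to 414 and Col3a1 at 52.3 to 411 FPKM. T2 was lowest for Krt8, at 593 FPKM, although the tumor epithelium score of 6.23 in T2 lay inside the range of 5.90 to 6.81.

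**Figure D3:**
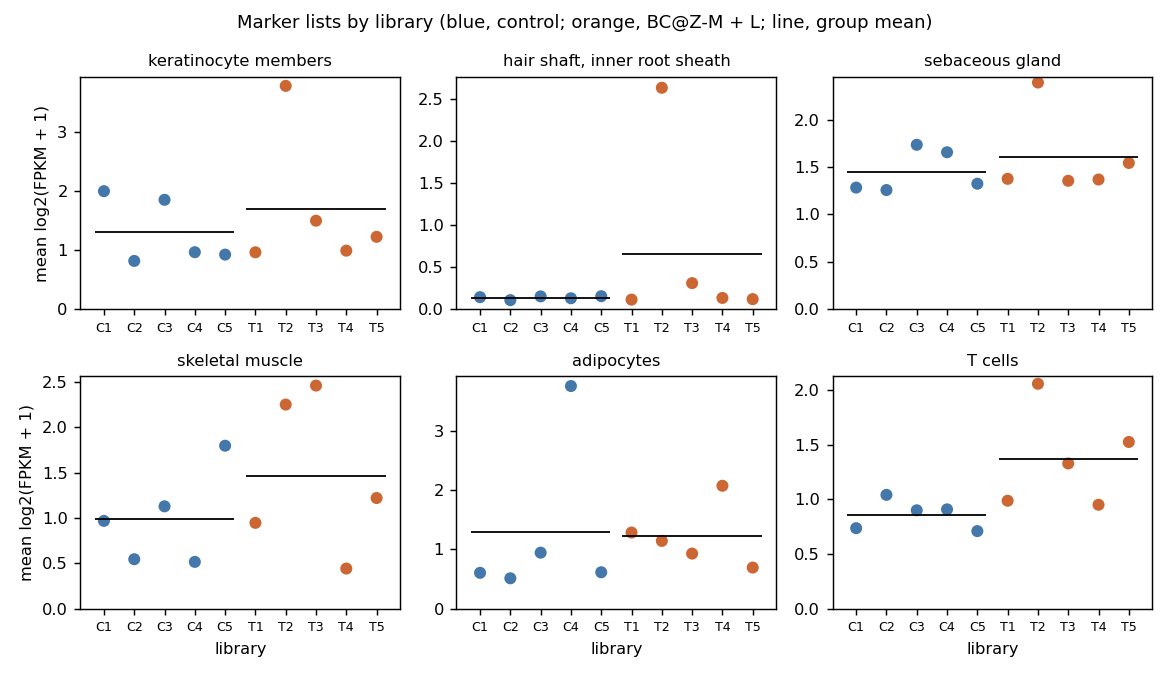
Mean of log2(FPKM + 1) over each of 6 marker lists in every library (points; blue, control; orange, BC@Z-M + L) with the mean of each group (line). T2 is the highest point for keratinocyte, hair, sebaceous gland and T cell genes, T3 for muscle and C4 for adipocytes.

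The comparison of BC@Z-M + L with control asks which genes changed with the therapy. None of the 26 keratinocyte genes tested passed an adjusted p of 0.05 in limma on log2(FPKM + 1), and none had an unadjusted p under 0.05. Over all 12802 genes the share called was 0%, and 323 genes (2.52%) had an unadjusted p under 0.05. edgeR called 0 of 30 keratinocyte genes and 0% of 18668 genes, of which 0 and 546 had an unadjusted p under 0.05. DESeq2 called 0 of the 15 keratinocyte genes that it gave a p and 7 of 32880 genes (0.0213%), of which 0 and 862 had an unadjusted p under 0.05. For the other 21 of the 36 genes (58.3%) DESeq2 withheld the p because of an outlying count, and the library with the largest Cook's distance was T2 in all 21. Over all genes with a count the p was withheld for 405 of 33285 (1.22%). T2 had the largest Cook's distance in 266 of those 405.

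The direction of the group means depended on T2. With all 10 libraries, 35 of the 36 genes had a higher mean of log2(FPKM + 1) in BC@Z-M + L and 1, Krt80, had a lower one, and the median difference was 0.35. Over all genes tested, 5910 were higher and 6892 lower, with a median of -0.01. Without T2, 5 of the 36 were higher and 31 lower, the median difference was -0.11, and 30 genes had changed sign. Leaving out any other single library changed the sign of 0 or 1 of the 36. Of the 26 genes tested, 16 were higher without T2 and C1, and 21 were higher without T2, C1, C3 and T3, with a median difference of 0.14. The 26 had entered by their mean over all 10 libraries. Without T2, the mean of Krt1, Krt79, Dsc3, Sprr1b, Sbsn, Krtdap, Dmkn, Pkp1, Klk7 and Cdsn was under 1 FPKM. These genes passed the filter only through T2, and the counts out of 26 include them. Of the libraries left in the last fit, only T5 was above 0 for Krt6a, Krt6b, Dsc3 and Sprr1b. Krt5 was at 1.49 FPKM in T5 and at most 0.130 in the others left. The direction of Krt6a, Krt6b, Dsc3 and Sprr1b there rests on T5 alone. No keratinocyte gene had all libraries of one group above all of the other, where 0.133% of all genes were wholly higher and 0.281% wholly lower in BC@Z-M + L.

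Sprr1a had the largest difference, 1.11 on the log2(FPKM + 1) scale (SE 0.88, limma adjusted p = 0.997, two-sided exact permutation p = 0.365, n = 5 and 5). Its mean was 1.20 ± 1.5 FPKM in control and 10.3 ± 19.6 FPKM under therapy (SD, n = 5), and 1.51 ± 1.65 FPKM in the 4 therapy libraries other than T2. Ly6d differed by 0.76 (SE 0.80, limma adjusted p = 0.997) and by -0.02 without T2. Krt6a also differed by 0.76 (SE 1.01, limma adjusted p = 0.997) and by -0.18 without T2. The basal keratin Krt5 went from 0.62 to -0.49 and Krt14 from 0.54 to -0.32. With 5 libraries per group the smallest p that the exact test allows is 0.00794.

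The keratinocyte score was 1.31 ± 0.56 (SD, n = 5) in control and 1.69 ± 1.18 (SD, n = 5) in the therapy group, a difference smaller than the spread within either group. Without T2 the therapy mean was 1.17 ± 0.25 (n = 4), below the control mean, in which C1 and C3 take part. In the 6 libraries left when T2, C1, C3 and T3 are set aside, a choice made after the data were seen, the difference was 0.16. T5 had the highest score of these, at 1.22. No p is given for this score, because the genes were chosen with earlier results in view.

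**Figure D4:**
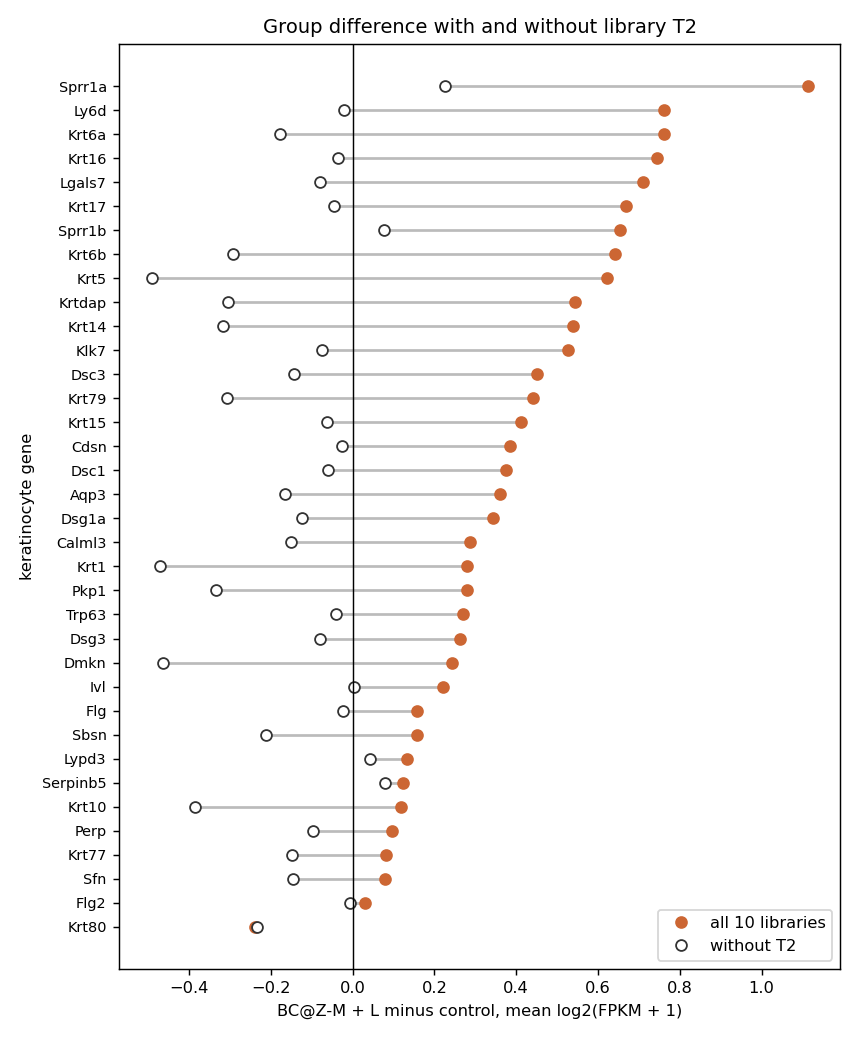
Difference of the mean log2(FPKM + 1), BC@Z-M + L minus control, for each of the 36 genes with all 10 libraries (filled) and without T2 (open). The filled points lie right of 0 for 35 genes and the open points for 5 genes.

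The comparison over all genes was also run with the keratinocyte level taken into account. When the score was added to the limma model as a covariate, 0 genes were called and the number with an unadjusted p under 0.05 was 215 instead of 323, with 195 genes in both sets. A covariate also takes up 1 degree of freedom, and the part of the keratinocyte level in this drop was not tested. Without T2 it was 181, of which 144 were among the 323. Without T2 and C1 it was 191, and without T2, C1, C3 and T3 it was 181. Other single libraries moved this number too, to 604 without C3 and to 1220 without T4, a library of low keratinocyte score. Leaving out T2 changed the sign of 12.7% of all genes tested, within the 7.86% to 17.0% seen on leaving out each other library. In this count T2 lay inside the range of the other libraries, whereas for the 36 keratinocyte genes it lay far outside.

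T cell genes were also highest in T2. The T cell score of 8 genes was 2.06 in T2 and 1.52 in T5, against 0.71 to 1.33 in the other libraries, and T2 was highest for 6 of the 8 genes. Trac, the T cell receptor alpha constant gene, was at 1.54, 1.85, 1.08, 1.88 and 1.39 FPKM in C1 to C5, and at 1.98, 5.35, 2.70, 1.78 and 2.85 FPKM in T1 to T5. Lck, the proximal T cell kinase, was between 1.20 and 2.98 FPKM in 9 libraries and at 4.49 in T2. For the 5 T cell genes tested, the median difference was 0.57 with all libraries, 0.49 with the score as covariate, 0.39 without T2 and 0.31 without all 4 libraries, and 0 were called in each of these fits. At an unadjusted limma p under 0.05 were 3, 3, 3 and 0 of the 5. Over all 12802 genes the first 3 counts were 323, 215 and 181. In edgeR and DESeq2 it held for 8 of 8 T cell genes each, beside 546 of 18668 and 862 of 32880 genes. The list was chosen with earlier results known, so these counts are no test of it. The 6 cytotoxic effector genes tested had medians of 0.54, 0.52, 0.52 and 0.67 under the same limma fits in that order, with Gzmb at 1.88 to 12.3 and Ccl5 at 4.30 to 17.6 FPKM. At an unadjusted limma p under 0.05 were 3, 3, 3 and 2 of the 6 under these fits. The 7 neutrophil genes had medians of -0.32, -0.40, -0.51 and -0.50 under these fits, and -0.59 without T5 and -0.18 without T3. Of these, S100a9 and S100a8, which keratinocytes also express when stressed, ranged from 209 to 738 and from 74.2 to 225 FPKM with T5 highest. The part of skin leukocytes in these values was not tested. The housekeeping score was 6.75 to 6.93 in all libraries, with B2m at 2234 to 3442 and Rplp0 at 797 to 1220.5 FPKM.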

How the data were processed

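Tumor RNA was extracted with TRIzol and sequenced as 10 libraries. The authors trimmed adapters with cutadapt 1.9, aligned reads with HISAT2 and quantified transcripts with StringTie, per the labels and the methods. The deposited table holds FPKM values and estimated counts per gene. Sources name GRCm38 and a later Ensembl release, so gene positions from the table are limited to the chromosome.

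Genes with a mean of at least 1 FPKM were tested as log2(FPKM + 1) with limma 3.58.1 (variance trend, R 4.3.3), with Benjamini-Hochberg adjustment over all 12802 genes and 0.05 as threshold. Single genes also had a two-sided exact permutation test. The deposited estimated counts entered edgeR 4.0.16 (quasi-likelihood) and DESeq2 1.42.0 as alternatives. The fits were also run on simulated counts with planted group differences. Those counts held no outlying library such as T2, so that run cannot tell how the fits handle one. Other alternatives were another pseudocount, other filters and scalings, array weights, a replicate block, the keratinocyte score as covariate and leaving out libraries. Division of reads among near-identical genes by the quantification can change low values, and 1103 to 1397 genes per library stood at exactly 4 estimated counts, so values of a few counts are uncertain.

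All members and marker lists were chosen with earlier results of these data known. Named genes were the 3 most abundant members of each group, Trp63 and the 3 largest differences, and in other lists the 2 most abundant (4 in the epidermal list). Further genes were added for their role after their values were seen. Of the list symbols, 5 were not found and are not used here. Promoters came from RefSeq, and coding identity from the longest open reading frames of GENCODE M21 transcripts.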

Additional observations from a re-analysis of the deposited data

Results flagged for a closer look

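Values far from the other 4 of their group, by Dixon's test at the 95% level on the log2(FPKM + 1) scale, were found for 15 of 66 groups of 5 libraries examined, and 11 of the 15 were T2. Chance flags about 1 in 20 independent groups, but the lists here share genes and were chosen with earlier results known, so this rate is no baseline for the count. Among single genes, T2 stood apart for Lgals7 at 81.9 FPKM, Klk7 at 9.24 FPKM and Trp63 at 2.18 FPKM. C3 stood apart for Sfn at 60.5 FPKM and C1 for Lypd3 at 26.3 FPKM. Among scores (means of log2(FPKM + 1)), T2 stood apart for all 36 keratinocyte genes at 3.77, for their basal group at 4.32, their suprabasal group at 3.48 and their cornified-layer group at 2.44. T2 also stood apart for other epidermal genes at 1.76, hair shaft and inner root sheath genes at 2.64, sebaceous gland genes at 2.39 and melanocyte genes at 0.71. C4 stood apart for adipocyte genes at 3.76 and C2 for housekeeping genes at 6.93. Gene by gene on the same scale, T2 was such a high value among the therapy libraries for 21 of the 36 keratinocyte genes (58.3%) and for 85 of the 12802 genes tested (0.664%). Only 26 of the 36 were among those tested.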

How the results depend on the processing

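No keratinocyte gene was called in any fit run on them (the score as covariate, which is built from these genes, was left out; at an unadjusted p under 0.05 there was 1 of 26 with array weights, 1 without T4 and 2 without T2, C1, C3 and T3, an alternative chosen after seeing the data), and over all genes the count called was 0 in each fit but DESeq2, which called 7. In the 10 fits that each left out one library, named genes ranged from -0.32 to 1.08 for Krt14, -0.035 to 1.19 for Krt16, -0.045 to 1.06 for Krt17, -0.18 to 1.22 for Krt6a, -0.29 to 1.18 for Krt6b, -0.081 to 1.11 for Lgals7, -0.022 to 1.14 for Ly6d, -0.075 to 0.76 for Klk7, -0.10 to 0.24 for Perp and -0.15 to 0.23 for Sfn. Each of these 10 lowest values was the value without T2, the library with the highest keratinocyte score. Perp was also negative without C4 (-0.00093), and Sfn was at -0.16 without T2 and C1. The other 4 named genes in the test (Sprr1a, Sprr1b, Lypd3, Krt80) kept their sign in every alternative run for them, at 0.23 to 1.61 for Sprr1a, 0.077 to 0.91 for Sprr1b, 0.044 to 0.32 for Lypd3 and -0.41 to -0.11 for Krt80 on leaving out one library, and the first 3 were lowest without T2. The difference of the keratinocyte score ranged from -0.14 to 0.56 on leaving out one library, and from 0.38 to 0.55 under other pseudocounts, scalings and summaries.

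Replicate numbers did not pair the libraries: deviations of same-numbered libraries had correlations of -0.283, 0.028, 0.003, 0.533 and -0.096. The fit with a replicate block called 0 genes overall and 0 keratinocyte genes, with 366 genes at an unadjusted p under 0.05. The median difference of all genes moved by under 0.1 with scaling, from -0.01 for FPKM to 0.03 for TPM. Array weights gave 1345 genes at an unadjusted p under 0.05 and 0 called.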
